A study of Dicosmoecus gilvipes with 20 samples.

Results

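The transcripts described here are those that the deposited table of temperature-responsive contigs annotates with the word myosin or titin. A contig is an assembled stretch of transcript, and a subcomponent is the set of contigs that the assembler Trinity put together as forms of the same locus. The search found 4 contigs in 2 subcomponents among 2586 contigs of the table, 1393 of them annotated, and among 135858 contigs and 79613 subcomponents in all. An assembled subcomponent that the study used as a troponin I reference, comp62634_c1, was to be left out, but it had 0 contigs in the table. The members were found among contigs that had been listed for differing between temperatures in these same libraries, so their values between temperatures, and counts of members past the criteria of the study, are given as a description, and no p value is printed for them.

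The study exposed wild larvae of the caddisfly *Dicosmoecus gilvipes*, an aquatic insect whose larva lives in a case of stones on stream beds, to 15.5, 20, 25 or 28.6°C and sequenced RNA of the thorax. Before exposure all larvae had been held at a common cooler temperature, and water was then warmed over several days to the final temperature and held there for a day. Each temperature has 5 libraries, 20 in all, made from pooled RNA of the same animals of that temperature. Spread between libraries, and every error and p value below, may therefore be technical and leaves out differences between animals, and an effect of temperature and an effect of the pool cannot be told apart.

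Muscle contracts when myosin thick filaments pull on actin thin filaments. Titin is a giant elastic protein built of immunoglobulin and fibronectin repeats. In *Drosophila* its relatives, among them kettin and D-Titin, run from the Z-disc toward the thick filament and carry the stiffness of insect muscle. Myosin light chain kinase, studied mostly in vertebrate smooth muscle, phosphorylates the regulatory light chain of myosin and so switches on contraction. It carries immunoglobulin repeats of the same superfamily beside its kinase domain.

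The annotations of the members were partial and weak matches. Both contigs of comp57446_c0 (comp57446_c0_seq1 and comp57446_c0_seq2, 541 bases each) were matched to rabbit smooth muscle myosin light chain kinase over residues 137 to 257 with 33.59% identity and an E value of 1e-07. Those residues lie toward the start of the protein, whereas the kinase domain of this family lies toward its end. The match took bases 162 to 533 in both contigs. Because the table gave both the same coordinates and identity, the annotation does not tell the contigs apart.

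The other 2 members, comp60551_c0_seq2 (1665 bases) and comp60551_c0_seq3 (1860 bases), were matched to *Drosophila* titin. The match covered residues 10791 to 11090 with 35.67% identity in both, at E values of 7e-09 and 1e-08. It ran in the reverse orientation of the contig, with 250 bases beyond it at the end of each contig. Before the match comp60551_c0_seq2 had 482 bases and comp60551_c0_seq3 had 677. None of the annotations was of a myosin chain: 0 listed contigs carried the word myosin other than in myosin light chain kinase, and 0 named tropomyosin or paramyosin. The members are called myosin light chain kinase-like (MLCK-like) and titin-like below after these matches alone, and their description as filament transcripts rests for the first of them on a kinase that is no filament protein.

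The 2 MLCK-like contigs are the whole of their subcomponent. The titin-like subcomponent has 8 contigs, of which comp60551_c0_seq7 was also in the table but without an annotation and the other 5 were not in it. In no library did reads shared with contigs outside the subcomponent enter its estimated counts, since the counting program grouped each subcomponent by itself. The sum over a subcomponent thus does not depend on how reads were divided among its contigs.

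Depth was between 6756103 and 14236152 estimated counts per library, and levels are given in CPM, estimated counts relative to the library total, scaled by the trimmed mean of M-values (TMM). Ribosomal-like contigs took 45.0% and 77.0% of the estimated counts of replicates 1 and 4 at 20°C, against 0.513 to 1.13% in the other 3 libraries of that temperature. They took 0.513 to 2.45% at 15.5°C, 0.49 to 1.93% at 25°C and 4.91 to 15.1% at 28.6°C. The troponin I reference, a thin filament protein of striated muscle, was at a mean of 2200 ± 183, 2770 ± 238, 3390 ± 112 and 3350 ± 259 CPM (SD, n = 5) from the coolest to the warmest temperature, so striated muscle transcripts were abundant in every library.

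The MLCK-like transcript was highest at 20°C and lowest at 28.6°C. Its sum was 29.5, 22.9, 23.9, 24.7 and 25.6 CPM in the libraries of 15.5°C. At 20°C it was 95.1, 79.1, 77.8, 92.9 and 74.9 CPM. At 25°C the values were 27.5, 38.0, 27.0, 27.1 and 25.4 CPM, and at 28.6°C they were 11.5, 11.5, 7.25, 3.94 and 4.90 CPM. All 5 libraries of 20°C were above, and all 5 of 28.6°C below, every library of the other temperatures. The libraries of 15.5°C and 25°C overlapped, so that these neighbours in the order did not differ beyond their spread. Separation of this kind was common. Libraries of 20°C lay above those of 15.5°C in 21.1% of all subcomponents tested, those of 25°C below those of 20°C in 16.5%, and those of 28.6°C below those of 15.5, 20 and 25°C in 28.4, 23.6 and 20.7%.

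Means of the MLCK-like sum, from the coolest to the warmest temperature, were 25.3 ± 2.54, 83.9 ± 9.34, 29.0 ± 5.08 and 7.81 ± 3.56 CPM (SD, n = 5). The fold change at 20°C against 15.5°C was 1.72 on the log2 scale (SE 0.13), a 3.28-fold higher level. From 20°C to 25°C it was -1.52 (SE 0.13), and from 25°C to 28.6°C -1.89 (SE 0.17). Between the highest and the lowest level, 28.6°C against 20°C, it was -3.41 (SE 0.16), a 10.6-fold lower level, while 28.6°C against 15.5°C gave -1.70 (SE 0.17) and 25°C against 15.5°C 0.19 (SE 0.14). The level thus rose and fell within the range of temperatures rather than moving one way with it.

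**Figure D1:**
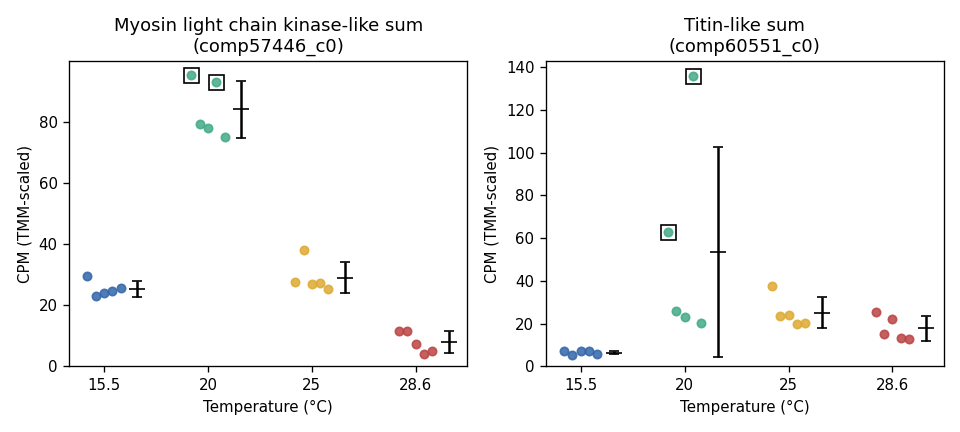
TMM-scaled CPM (vertical axis) of the summed contigs of the MLCK-like subcomponent (left) and the titin-like subcomponent (right) in each of 5 libraries per temperature (horizontal axis, °C), with the mean and SD in black and replicates 1 and 4 of 20°C in open squares. The MLCK-like sum is highest at 20°C (74.9 to 95.1) and lowest at 28.6°C (3.94 to 11.5), and the titin-like sum is lowest at 15.5°C (5.44 to 6.97) with 136 and 62.6 in the squared libraries.

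At 20°C replicates 1 and 4, which were rich in ribosomal-like reads, were also the highest in the MLCK-like sum. Without them the mean at 20°C was 77.2 ± 2.13 CPM (SD, n = 3), and the log2 fold change was 1.61 against 15.5°C and -3.30 for 28.6°C against 20°C. When counts were scaled by library size only, the change at 20°C against 15.5°C was 0.76 and that at 28.6°C against 20°C was -2.76. That scaling moved the median of all subcomponents by -0.89 and 0.65 in these comparisons, against 0.03 and 0.02 with TMM, so relative to the median subcomponent the values were close under both.

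Both contigs of the MLCK-like subcomponent moved in the direction of their sum, by unequal amounts. The more abundant contig, comp57446_c0_seq2, was at 23.2, 17.3, 17.9, 18.3 and 21.3 CPM at 15.5°C and at 53.3, 38.0, 52.6, 53.7 and 43.0 CPM at 20°C. It was at 19.6, 23.5, 18.7, 20.5 and 17.3 CPM at 25°C and at 8.70, 8.84, 6.14, 3.51 and 3.67 CPM at 28.6°C. Its libraries of 20°C were all higher and those of 28.6°C all lower than the rest, while 15.5°C and 25°C overlapped. Of all contigs tested, 10.8% had all libraries of 20°C above those of 15.5°C and 8.82% all of 25°C below those of 20°C. Libraries of 28.6°C were below those of 15.5, 20 and 25°C in 19.1, 14.2 and 12.5% of contigs.

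The contig comp57446_c0_seq1 was at 7.28, 6.57, 6.46, 6.93 and 4.88 CPM at 15.5°C. It was at 42.7, 42.1, 25.1, 37.9 and 33.7 CPM at 20°C, then at 8.63, 15.0, 8.60, 7.06 and 8.61 CPM at 25°C. At 28.6°C it was at 3.12, 3.09, 1.39, 0.566 and 1.42 CPM. The order of temperatures was that of the other contig, with the libraries of 20°C apart from all others on the high side and those of 28.6°C on the low side.

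Log2 fold changes of comp57446_c0_seq1 were larger in size than those of comp57446_c0_seq2 in all 6 comparisons. At 20°C against 15.5°C they were 2.49 (SE 0.29) and 1.29 (SE 0.20), around the 1.72 of the sum. At 28.6°C against 20°C they were -4.24 (SE 0.33) and -2.96 (SE 0.22). At 28.6°C against 15.5°C they were nearly the same, -1.75 (SE 0.32) and -1.67 (SE 0.21).

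**Figure D2:**
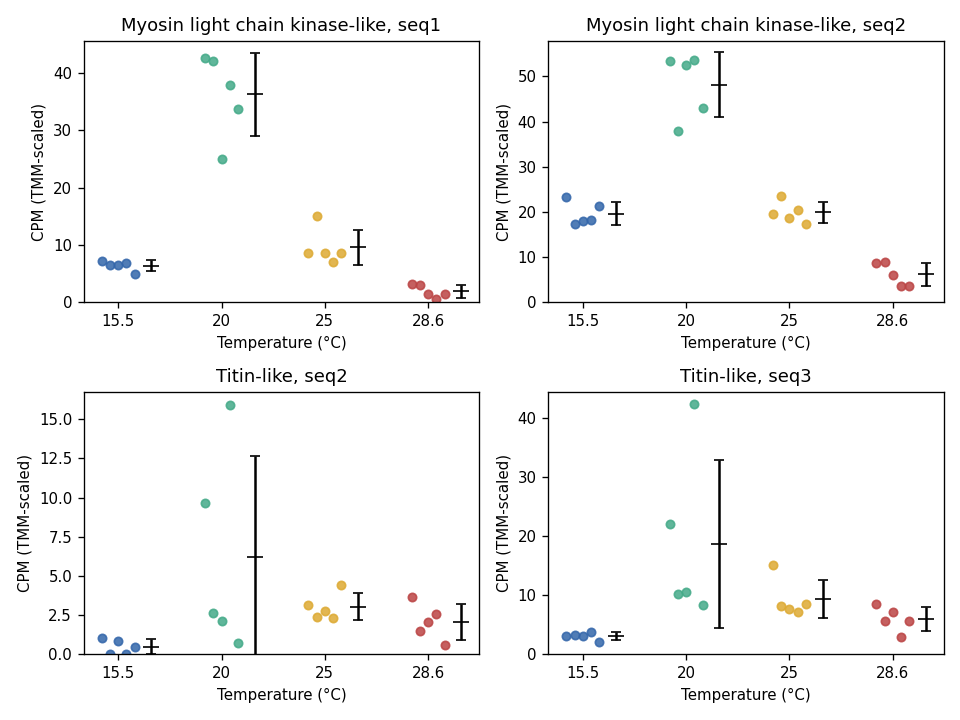
TMM-scaled CPM of the 4 listed contigs (vertical axes, each with its own scale) in each of 5 libraries per temperature (horizontal axis, °C), with the mean and SD in black. Both MLCK-like contigs peak at 20°C and are lowest at 28.6°C, and the titin-like contigs are lowest at 15.5°C.

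The share that comp57446_c0_seq1 took of the MLCK-like sum followed from this difference. From the coolest to the warmest temperature it was 24.8 ± 3.77, 42.9 ± 7.22, 32.0 ± 4.72 and 22.4 ± 6.0% of the estimated counts (SD, n = 5). The libraries of 20°C ranged from 32.4 to 52.5% and those of 15.5°C from 18.6 to 27.6%, without overlap. How often shares of other contigs separate in this way was not counted, so nothing is read from it. The contig comp57446_c0_seq2 was the larger on average at every temperature.

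Reads that map to a single contig also placed the share highest at 20°C and next at 25°C, at lower precision, while the order of 15.5°C and 28.6°C was exchanged. Only 12.6% of the estimated counts of the subcomponent, 759 reads over all libraries, were unique to a contig, so the division between the contigs rests mostly on the probabilities assigned by the counting program. Of the unique reads, comp57446_c0_seq1 held 34 of 179 at 15.5°C (19.0%, exact Clopper-Pearson 95% interval 13.5 to 25.5%) and 136 of 399 at 20°C (34.1%, 29.4 to 39.0%). It held 43 of 147 at 25°C (29.3%, 22.0 to 37.3%) and 7 of 34 at 28.6°C (20.6%, 8.70 to 37.9%). The intervals of 15.5°C and 20°C did not overlap, and that of 28.6°C was too wide to place it. These intervals pool 5 libraries and cover counting error only.

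**Figure D3:**
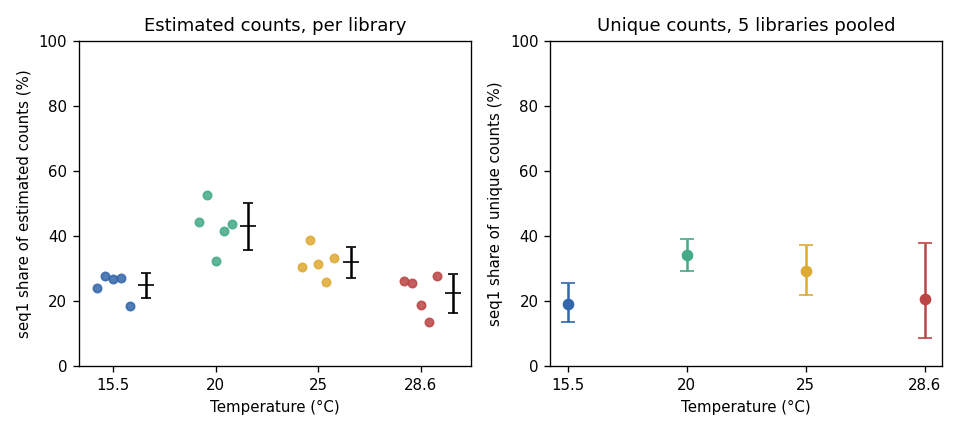
Share of the MLCK-like subcomponent held by comp57446_c0_seq1 (vertical axes, %) by temperature (horizontal axes, °C): estimated counts in each library with mean and SD (left), and unique reads of 5 libraries pooled with exact 95% intervals (right). The share is highest at 20°C in both, at 42.9% and 34.1%.

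The titin-like transcript was lowest at 15.5°C. Its sum was 6.97, 5.44, 6.93, 6.97 and 5.53 CPM at 15.5°C and 62.6, 25.7, 23.0, 136 and 20.1 CPM at 20°C. At 25°C it was 37.4, 23.6, 24.1, 19.7 and 20.3 CPM, and at 28.6°C it was 25.6, 15.2, 22.2, 13.0 and 12.7 CPM. All 5 libraries of 15.5°C were below every library of the warmer temperatures, whereas the 3 warmer temperatures overlapped with each other. Of all subcomponents tested, 26.1% had all libraries of 25°C, and 29.1% all of 28.6°C, above those of 15.5°C. Means were 6.37 ± 0.807, 53.5 ± 49.4, 25.0 ± 7.19 and 17.7 ± 5.82 CPM (SD, n = 5) from the coolest to the warmest temperature.

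The 2 highest values, 136 and 62.6 CPM, belonged to replicates 4 and 1 of 20°C, the libraries with 77.0 and 45.0% of ribosomal-like counts. Without them the mean at 20°C was 22.9 ± 2.84 CPM (SD, n = 3), which lies between those of 25°C and 28.6°C. The library with the largest ribosomal-like share was the highest in the titin-like sum in 3 of 4 temperatures, all but 15.5°C, and in the MLCK-like sum in 1 of 4. At 25°C that library was replicate 1 (1.93% ribosomal-like, 37.4 CPM) and at 28.6°C replicate 1 (15.1%, 25.6 CPM). The part of the ribosomal-like share in the titin-like level was not tested. For a figure of its selected genes the study itself set aside 2 samples of 20°C for divergent expression, and its caption does not name them.

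**Figure D4:**
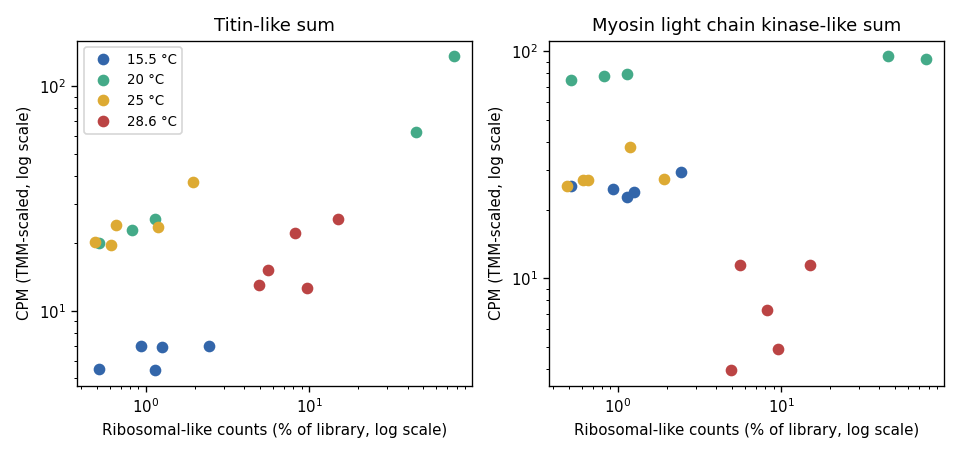
TMM-scaled CPM of the titin-like sum (left) and the MLCK-like sum (right), on log vertical axes, against the percentage of estimated counts in ribosomal-like contigs (log horizontal axis), 1 point per library coloured by temperature. The libraries at 45.0% and 77.0% have the highest titin-like values, 62.6 and 136 CPM, and the 15.5°C libraries the lowest.

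The log2 fold change of the titin-like sum was 2.81 (SE 0.38) at 20°C against 15.5°C with all libraries, and 1.86 without replicates 1 and 4 of 20°C. It was 2.0 (SE 0.38) at 25°C and 1.49 (SE 0.40) at 28.6°C against 15.5°C, and 2.0 and 1.5 without replicates 1 and 4 of 20°C, which enter those comparisons through the scaling and the spread alone. The comparisons of 25°C and 28.6°C with 20°C gave -0.81 (SE 0.33) and -1.31 (SE 0.34). Without replicates 1 and 4 they were 0.15 and -0.36, so the direction of the first was turned by those libraries. With scaling by library size only the first was 0.26, but that scaling moved the median of all subcomponents by 0.78 in this comparison. At 28.6°C against 25°C the sum gave -0.51 (SE 0.34). The higher level at every temperature above 15.5°C held under each of these settings, while the order of 20°C and 25°C turned without replicates 1 and 4.

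The 2 annotated titin-like contigs held 54.0 ± 4.60, 48.3 ± 4.64, 49.0 ± 7.81 and 44.1 ± 3.53% of the sum (SD, n = 5) from the coolest to the warmest temperature, so about as much of this transcript was in contigs without the annotation. Their values in single libraries follow because the results at 20°C turn on them, a choice made after the values were seen. The contig comp60551_c0_seq3 was at 3.16, 3.23, 3.13, 3.84 and 2.15 CPM at 15.5°C and at 22.1, 10.2, 10.5, 42.3 and 8.35 CPM at 20°C. It was at 15.1, 8.24, 7.63, 7.17 and 8.51 CPM at 25°C and at 8.57, 5.64, 7.07, 2.94 and 5.68 CPM at 28.6°C. All libraries of 20°C and 25°C were above those of 15.5°C, and those of 28.6°C overlapped with them. For 25°C against 15.5°C this held in 16.0% of all contigs tested.

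The shorter contig comp60551_c0_seq2 was assigned few reads at 15.5°C. There 2 of 5 libraries were at 0.00 CPM after rounding and the highest was at 1.05 CPM. In replicates 2 and 4, the libraries at 0.00 CPM, 59 and 31 reads could be placed on the contig. The counting program assigned them nearly wholly to other contigs of the subcomponent, so 0.00 CPM does not show absence of the transcript. The contig ranged from 0.734 to 15.9 CPM at 20°C, from 2.32 to 4.45 CPM at 25°C and from 0.591 to 3.64 CPM at 28.6°C. Its log2 fold changes, 3.63 (SE 0.87) at 20°C, 2.68 (SE 0.85) at 25°C and 2.13 (SE 0.85) at 28.6°C against 15.5°C, carry the largest errors among the members. For comp60551_c0_seq3 they were 2.54 (SE 0.41), 1.59 (SE 0.40) and 0.94 (SE 0.40). Without replicates 1 and 4 the values at 20°C were 1.95 and 1.64. Reads unique to these contigs were few, 29 for comp60551_c0_seq2 and 82 for comp60551_c0_seq3 over all libraries. That is 7.33 and 6.0% of their estimated counts, and at 15.5°C there were 1 and 8. The levels of both contigs thus rest mostly on the probabilities assigned by the counting program.

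At 20°C against 15.5°C the other contigs of the titin-like subcomponent that could be tested were higher, as was its sum. Their log2 fold changes were 3.82 (SE 0.78) for comp60551_c0_seq4, 2.91 (SE 0.61) for comp60551_c0_seq5 and 2.96 (SE 0.47) for comp60551_c0_seq7, the contig that was listed without an annotation. These values rest in large part on replicates 1 and 4 of 20°C. Without them the mean at 20°C fell from 5.46 to 1.33 CPM for comp60551_c0_seq4, from 7.87 to 2.77 CPM for comp60551_c0_seq5 and from 13.2 to 6.13 CPM for comp60551_c0_seq7, against 0.351, 0.993 and 1.62 CPM at 15.5°C. The remaining contigs, comp60551_c0_seq1, comp60551_c0_seq6 and comp60551_c0_seq8, had 104, 4 and 46 estimated counts over all libraries and did not pass the filter on low counts, which asked for at least 2 CPM in at least 4 libraries. All 4 annotated contigs passed it.

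**Figure D5:**
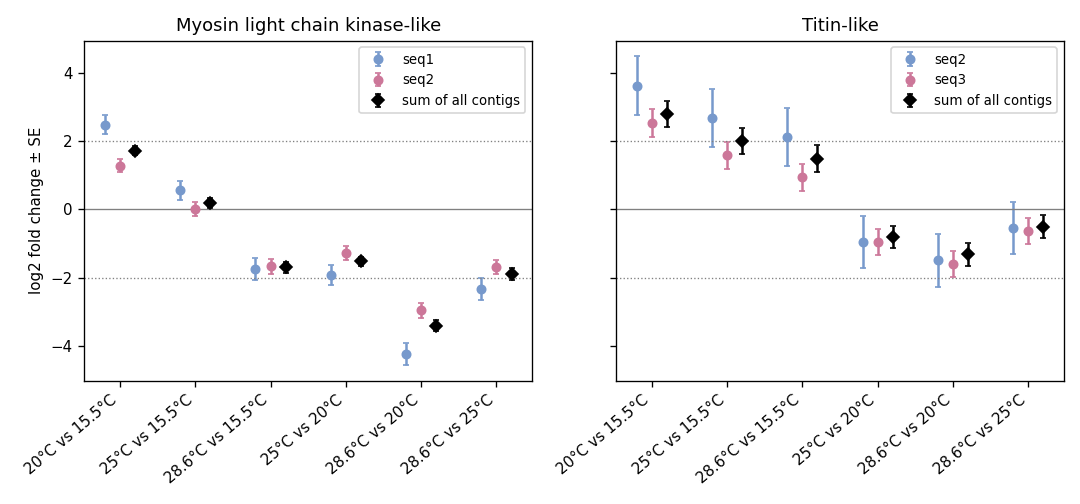
Log2 fold change with its SE (vertical axis) in the 6 comparisons of temperatures (horizontal axis) for the listed contigs and, as black diamonds, for the sum of all contigs of the MLCK-like (left) and titin-like (right) subcomponents; dotted lines mark a 4-fold change. The listed contigs share the sign of their sum in every comparison, with comp57446_c0_seq1 at -4.24 against a sum of -3.41 in the comparison of 28.6°C with 20°C.

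Each member was classed in the comparison in which its own change was largest, as a change of the sum where the sum moved by at least 1 on the log2 scale in the same direction, and as a contig switch where the sum moved by less than 0.5 or the other way. All 4 members were changes of the sum, and 0 were switches. Each sum includes the counts of its member, and the class leaves room for a change of share such as that of comp57446_c0_seq1. For comp57446_c0_seq1 and comp57446_c0_seq2 the comparison was 28.6°C against 20°C, with the contig at -0.83 and 0.45 from its sum of -3.41. For comp60551_c0_seq2 and comp60551_c0_seq3 it was 20°C against 15.5°C, with distances of 0.82 and -0.27 from a sum of 2.81. Without replicates 1 and 4 of 20°C the contigs were at 1.95 and 1.64 and the sum at 1.86, and the largest change of comp60551_c0_seq2 was then at 25°C against 15.5°C, 2.68 with a sum of 2.0. With unique reads alone 3 members could be classed, all as changes of the sum, the MLCK-like sum being at -3.99 and the titin-like sum at 2.80.

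With an adjusted p below 0.05 and a fold of at least 4, the criteria of the study applied in an edgeR quasi-likelihood fit, 3 of 4 members were past both at 20°C against 15.5°C, where 4.64% of all contigs tested were. Without replicates 1 and 4 of 20°C 1 member was, and both titin-like contigs were lost. With scaling by library size only the count was 1 as well. At 28.6°C against 20°C 2 of 4 were past both (11.3% of all contigs). There was 1 of 4 at 28.6°C against 25°C (6.23%), 1 at 25°C against 15.5°C (7.21%) and 1 at 28.6°C against 15.5°C (13.3%). The last was comp60551_c0_seq2, and the count was 0 when any of 12 single libraries was left out. At 25°C against 20°C the count was 0 (3.96%), with edgeR's likelihood ratio test and DESeq2 as well, while 3 members were below an unadjusted p of 0.05 and 2 below the adjusted p alone (23.0% of all contigs). Since the members were taken from a list of contigs that differ between temperatures, nothing is read from these shares.

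For the sums, the MLCK-like subcomponent was past both criteria at 28.6°C against 20°C (6.0% of all subcomponents). The titin-like subcomponent was past both at 20°C against 15.5°C (2.07%), which was lost without replicates 1 and 4 of 20°C, and at 25°C against 15.5°C (3.12%). Its fold in the last was 4.0, at the limit itself, and the call was lost with edgeR's likelihood ratio test and with DESeq2. The count of sums past both was 0 at 28.6°C against 15.5°C (6.94%), at 28.6°C against 25°C (2.85%) and at 25°C against 20°C (1.46%), with the likelihood ratio test and DESeq2 as well. In these comparisons 2, 1 and 2 sums were below an unadjusted p of 0.05 and as many below the adjusted p alone, which 72.5, 59.6 and 45.7% of all subcomponents were.

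The libraries fall into a pair of sets by the longest read position that the counting program recorded, 188 in 8 libraries and 99 in 12. The long set held 3 libraries of 15.5°C, 1 of 20°C, 4 of 25°C and 0 of 28.6°C. This property had no part in choosing the members and could be tested. In the edgeR quasi-likelihood fit with temperature and set, 0 of 4 members and 0 of 2 sums differed between sets, and 0 were below an unadjusted p of 0.05. The likelihood ratio test also gave 0 for both. Of all transcripts, 3 of 29292 contigs (0.0102%) and 0 of 14870 subcomponents (0.0%) did. Among the members and their sums the largest difference was in the titin-like sum, -0.65 for long against short libraries (SE 0.32, unadjusted p = 0.053, adjusted p = 0.931), while the MLCK-like sum gave -0.04 (SE 0.13, adjusted p = 1.0).

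Within the short set the MLCK-like sum gave a log2 ratio of means of 1.71 at 20°C against 15.5°C and -3.45 at 28.6°C against 20°C, close to the values over all libraries. The titin-like sum gave 3.30 at 20°C against 15.5°C within the short set, with 4 against 2 libraries, and 1.83 within the long set, with 1 against 3. Both outlying libraries of 20°C are in the short set. At 25°C against 15.5°C the titin-like sum gave 2.59 within the short set and 1.76 within the long set. At 28.6°C, which has short libraries only, it gave 1.52 against 15.5°C and -1.08 against 25°C within that set. With the set as covariate in the fit, the titin-like sum was 1.16 at 28.6°C against 15.5°C in place of 1.49. Against 25°C it was -0.98 in place of -0.51. Set and temperature overlap in part, so the test between sets cannot show that the titin-like level is free of the set.

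Other muscle transcripts in the table shared at most part of the course of a member over the temperatures. A list of 16 words for sarcomere proteins found 4 in the annotations. The word kettin was found in the titin-like contigs themselves, and actin only among the alternative names of a small heat shock protein. The other words led to troponin I-like and muscle-specific protein 20-like contigs.

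Troponin I is the inhibitory subunit that holds back contraction in the absence of calcium. Its 4 listed contigs belong to comp63275_c0, whose sum was at a mean of 163 ± 3.04, 169 ± 12.3, 107 ± 6.59 and 25.8 ± 1.33 CPM (SD, n = 5) from the coolest to the warmest temperature. At 28.6°C, 3 of 4 contigs were past both criteria on the low side against each of the other temperatures. Of all contigs tested, 5.72, 5.55 and 2.98% were so against 15.5, 20 and 25°C. The sum was at -2.66 (SE 0.057) against 15.5°C. The far more abundant troponin I reference, comp62634_c1, did not share this fall, with 0.60 (SE 0.059) in the same comparison. The sum of comp63275_c0 shared the low level at 28.6°C with the MLCK-like transcript but not the high level at 20°C. There it gave 0.06 (SE 0.050) against 15.5°C.

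Muscle-specific protein 20 is a calponin-family protein of *Drosophila* muscle. Its 7 listed contigs belong to comp64509_c1, with means of 1480 ± 31.5, 774 ± 50.5, 505 ± 25.3 and 7370 ± 384 CPM (SD, n = 5) in the same order. Against 15.5°C, 6 of 7 contigs were past both criteria on the high side at 28.6°C, as were 7.58% of all contigs tested. The sum was at 2.32 (SE 0.049). That is the opposite of the MLCK-like sum, which was lowest at 28.6°C. These contigs were listed for their changes too and are no independent reading of muscle.

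The thorax holds tissues other than muscle, and in RNA of whole tissue fewer cells of a type and less RNA per cell cannot be told apart. The table held 6 contigs for 5 of 7 words on fat body and storage proteins, such as hexamerin and vitellogenin. Their summed level was 7250 to 7690 CPM at 15.5°C, 29100 to 36100 at 20°C, 6040 to 7360 at 25°C and 3510 to 4810 at 28.6°C. This list was highest at 20°C and lowest at 28.6°C, as was the MLCK-like sum, and all 6 contigs were detected at each temperature. The part of other tissues in the MLCK-like level was not tested.

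All 5 gut words were found, in 66 contigs. Most were digestive enzymes or peritrophin, but some were protease inhibitors or other enzymes whose annotation holds such a word. These contigs summed to 10200 to 11000, 18200 to 22400, 6240 to 7670 and 3120 to 3410 CPM in the same order of temperatures. They were likewise highest at 20°C and lowest at 28.6°C. Cuticle words gave 13 contigs at 3240 to 3600, 1970 to 2280, 807 to 968 and 232 to 307 CPM, and haemocyte words 5 contigs at 362 to 385, 301 to 311, 326 to 385 and 72.7 to 93.4 CPM. Neither of these had its highest level at 20°C, and 0 contigs were found for the nerve and silk gland words. None of the lists was lowest at 15.5°C as the titin-like sum was, and all of them hold only contigs that the table lists for a difference between temperatures.

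Among all tested subcomponents, those whose level followed the MLCK-like sum most closely over 20 libraries were comp57566_c5 (Spearman's rho 0.962), comp62719_c2 (0.961), and comp63201_c0 and comp64720_c0, which tied at 0.955. None of them has a contig in the table, so they carry no annotation here. Their mean levels at 15.5, 20, 25 and 28.6°C were 5.77, 15.2, 7.09 and 3.24 CPM for comp57566_c5 and 108, 172, 143 and 88.4 CPM for comp62719_c2. Both shared the high level at 20°C and the low level at 28.6°C at a smaller range. The points share library, depth and temperature, and the correlation is a description.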

How the data were processed

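RNA of larval thorax was sequenced in 20 libraries, 5 at each of 4 temperatures. The submitters' processing notes name Trim Galore 0.3.0, Bowtie2 2.0.6, eXpress 1.5.1 and edgeR 1.2.4, and the study's methods describe reads mapped to a Trinity assembly. Each deposited library file is the authors' eXpress output. Its estimated count divides multiply mapping reads among contigs by likelihood, its total and unique counts are whole counts of reads made by the authors, and its FPKM is per contig length and library total. The deposited table holds log2 values of the authors, which the study describes as centred on a median. Only its identifiers and annotations were used. It has no columns of no sample.

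Estimated counts, per contig or summed per subcomponent, were rounded and fitted in R 4.3.3 with edgeR 4.0.16 (TMM, glmQLFit, glmQLFTest, prior count 0.125), keeping features with at least 2 CPM in at least 4 libraries. P values were adjusted by Benjamini-Hochberg within a comparison. The SE of a log2 fold change is its size divided by the square root of the F statistic of its test. The fit was tested on simulated data. Other fits used DESeq2 1.42.0 and other settings given below. Tables were made with Python 3.11.15, pandas 2.3.3, scipy 1.17.1, numpy 2.4.6 and matplotlib 3.10.9.

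Values per library are printed for member sums, and for member contigs with a mean of at least 10 CPM, which takes both MLCK-like contigs. Members, lists and rules were chosen with earlier results of these data known. Depth leaves few counts for a contig near 2 CPM. No sequence of the contigs was used here.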

Additional observations from a re-analysis of the deposited data

Results flagged for a closer look

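Of 40 groups of 5 libraries tested for a library far from the rest (4 listed contigs and 2 sums in CPM, and 4 contig shares), 5 had such a library by Dixon's criterion. Chance flags about 1 in 20 independent groups, but these are not independent, since contigs are part of their sums. The criterion seeks a single library and can miss a pair. It did not flag replicates 1 and 4 of 20°C in the titin-like sum (62.6 and 136 CPM). All flagged groups were at 25°C. The MLCK-like sum was 38.0 CPM in replicate 2 against 25.4 to 27.5 CPM in the others, and comp57446_c0_seq1 was 15.0 CPM there against 7.06 to 8.63 CPM. Without that library the MLCK-like sum was 0.09 on the log2 scale at 25°C against 15.5°C.

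The titin-like sum was 37.4 CPM in replicate 1 against 19.7 to 24.1 CPM, and comp60551_c0_seq3 was 15.1 CPM there against 7.17 to 8.51 CPM. Replicate 1 was the only library of 25°C in the short set and had the largest ribosomal-like share of that temperature, 1.93%. Without it the titin-like sum was 1.80 at 25°C against 15.5°C in place of 2.0 and was no longer past the 4-fold limit. The share of comp60551_c0_seq2 in its subcomponent was 21.3% in replicate 5 against 8.26 to 11.6% in the others. The causes were not tested.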

How the results depend on the processing

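The direction of no called value turned over under the alternatives. Of 1180 log2 fold changes, 1133 moved by less than 1 SD and 47 by more. This SD is not the SE printed with the fold changes. Many alternatives left out a single library, often of a temperature outside the comparison, where the value could hardly move. The likelihood ratio test also leaves fold changes nearly as they were, so the count of 1133 is no measure of robustness. The titin-like sum at 28.6°C against 15.5°C, 1.49 (SE 0.40), counted as moved at 1.16 with the library set as covariate. Counts of members past both criteria changed by more than 1.5 times as follows, and the cause was not tested. With the adjusted p alone, contigs were 3 at 28.6°C against 15.5°C (46.8% of all contigs) and 2 against 25°C (31.1%). They were 2 at 25°C against 15.5°C (38.0%) and 2 against 20°C (23.0%). Sums were 2, 2 and 1 at 28.6°C against 15.5, 20 and 25°C (72.5, 65.5 and 59.6% of all subcomponents). They were 2 at 25°C against 20°C (45.7%) and 2 at 20°C against 15.5°C (57.7%). The 1 contig at 28.6°C against 15.5°C fell to 0 with no filter on low counts, 2 CPM in all 20 libraries, effective counts, 2 temperatures only, the replicate block or the library set as covariate. With 2 CPM in all libraries, contigs were 1 at 28.6°C against 20°C, 0 against 25°C, 0 at 25°C against 15.5°C and 1 at 20°C against 15.5°C. Effective counts gave 0 contigs at 25°C against 15.5°C, and 2 and 1 sums at 28.6°C against 20 and 25°C. Unique counts gave 0 and 1 contigs at 25°C against 15.5 and 20°C, and 1 sum each at 28.6°C against 15.5 and 25°C. Library size only gave 1 contig and 0 sums at 20°C against 15.5°C, and 1 sum at 28.6°C against 25°C. Without replicates 1 and 4 of 20°C, 1 contig and 0 sums were called at 20°C against 15.5°C. The titin-like sum at 25°C against 15.5°C, at the 4-fold limit, was lost (0 sums) with RLE factors, library size only, no filter, the likelihood ratio test, DESeq2 or the replicate block.

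Leaving out 1 library gave 0 to 1 contigs at 28.6°C against 15.5°C (0 without any of 12 libraries). It gave 0 to 1 contigs at 25°C against 20°C (1 without replicate 3 of 20°C or 2 of 25°C), 0 to 1 sums at 28.6°C against 25°C (1 without replicate 1 or 2 of 28.6°C) and 0 to 1 sums at 25°C against 15.5°C (0 without replicate 2 or 5 of 15.5°C or 1 of 25°C). Library-set counts were 0 in all alternatives run. Replicate numbers did not pair libraries: 30 correlations of same-numbered libraries lay between -0.026 and 0.062. The replicate block changed only those 2 counts, both from 1 to 0.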
